A study of Homo sapiens with 9 samples.

Results

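The granin and prohormone convertase genes comprised 8 names, SCG2, SCG3, SCG5, CHGA, CHGB, VGF, PCSK1 and PCSK2, and 6 of them had a row carrying their symbol among the 21448 rows of the array table. PCSK1 and PCSK2 were not analysed here. The family was selected on the measured rise of SCG2 in the knockdown cells, so the differences of SCG2 from the control are given as a description, with no test. Expression was measured on whole-transcript arrays in AsPC-1, an established human pancreatic adenocarcinoma line, after suppression of STOML2, which encodes stomatin-like protein 2 (SLP-2) of the mitochondrial inner membrane. The groups were sh1 and sh2, which carried plasmids for shRNA-1 and shRNA-2 of SLP-2, and the control, which carried the blank pBAsi-hU6 NEO plasmid. All groups, the control included, had been selected with Geneticin for 3 weeks, and each was grown from 1 colony and gave 3 arrays. A group is therefore 1 clone, so the effect of the shRNA and a difference between clones cannot be told apart, and the p-values cover no more than the variation among a clone's own arrays, some or all of it perhaps technical.

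Granins are acidic, calcium-binding proteins of the regulated secretory pathway, which aggregate in the trans-Golgi network and take part in forming dense-core vesicles. The prohormone convertases cut granins and hormone precursors at basic residues, carboxypeptidases trim the ends, and PAM amidates many of the products. In the pancreas this machinery is typical of islet endocrine cells, and granins serve as markers of neuroendocrine tumours, whereas AsPC-1 derives from a tumour with ductal features.

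The log2 signal of STOML2 lay at 8.18 to 8.42 in sh1 and 7.35 to 7.99 in sh2, against 13.65 to 13.7 in the control, without overlap. Array medians were 6.57 to 6.65, and signals correlated across rows at r = 0.994 to 0.996 within a group and 0.982 to 0.988 between groups. Detection calls were not used here, and 4.21, the lower quartile of the row means, marked signals near the background. The number of arrays limits the precision. All 11 epithelial markers of the pancreas lay above that quartile in every group, with KRT8, a simple epithelial keratin, at mean log2 signals of 16.9 in sh1, 16.9 in sh2 and 16.2 in the control. Of 8 islet hormone and beta cell genes, 5 lay under the quartile in each group.

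SCG2 encodes secretogranin II, the precursor of the peptide secretoneurin, and was high in both knockdown lines. Its log2 signals were 7.23, 6.71 and 6.91 in sh1, 7.18, 6.87 and 6.5 in sh2, and 3.55, 3.61 and 3.41 in the control. Every knockdown array lay well above every control array, and the control lay under the quartile that marked the background, so the size of the difference may be limited there. The mean was 6.95 ± 0.262 in sh1 and 6.85 ± 0.34 in sh2, against 3.52 ± 0.103 in the control (SD, n = 3 each). The difference from the control was 3.43 ± 0.186 (SE) on the log2 scale in sh1, a ratio of 10.75, and 3.33 ± 0.186 in sh2, a ratio of 10.03. By size of rise, SCG2 stood at place 25 of 21448 rows in sh1 and at place 33 in sh2. In bulk RNA, more cells that express a gene and more RNA per cell cannot be told apart. The comparison between the knockdown lines rests on the same sh1 and sh2 arrays as the selection, so it too is given as a description. SCG2 in sh2 differed from sh1 by -0.10 ± 0.186 (SE), and the arrays of the lines overlapped.

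**Figure D1:**
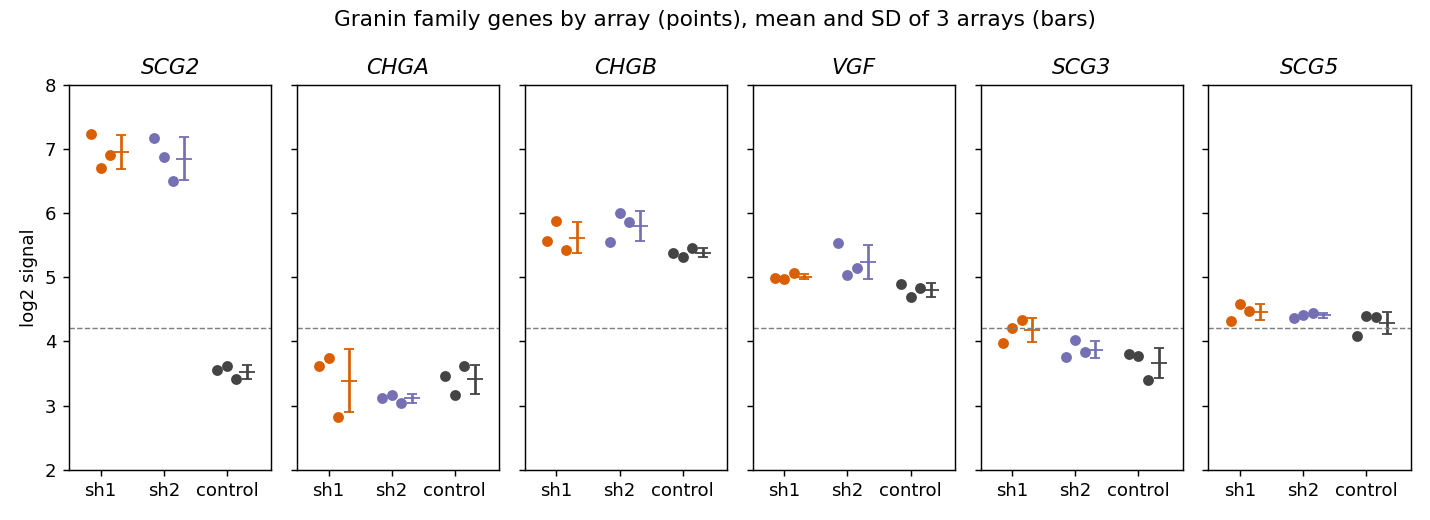
Log2 signal of the 6 measured granin family genes on each array (points) in sh1, sh2 and control cells, with the mean and SD of 3 arrays (bars to the right) and the lower quartile of row means (dashed line). SCG2 lay between 6.5 and 7.23 on the knockdown arrays, all above the control arrays at 3.41 to 3.61, while the other genes differed little between the groups; levels of different genes are not comparable.

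Beyond SCG2, 1 of the 5 measured members was called higher and 0 lower in sh1 (limma, adjusted p under 0.05), namely SCG3, where 9.76% of all rows were called higher and 9% lower. In sh2, 0 of the 5 were called in either direction, with 2 at an unadjusted p under 0.05, where 8.33% of all rows were called higher and 7.98% lower. Their median difference was 0.203 in sh1 and 0.207 in sh2 on the log2 scale, against medians over all rows of 0.02 and 0.017. Between the lines, 0 of these 5 members were called in limma, and 0 of them had an unadjusted p under 0.05. Of all rows, 5.73% were called higher in sh2 and 5.57% lower. The comparisons of sh1 and sh2 with the control share the control arrays.

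CHGA encodes chromogranin A, a classical serum marker of neuroendocrine tumours, and stayed near the background in all groups. Its log2 signals were 3.61, 3.74 and 2.82 in sh1, 3.12, 3.17 and 3.04 in sh2, and 3.46, 3.16 and 3.61 in the control. All group means lay under the lower quartile, and the arrays of the groups overlapped. CHGA did not pass the test in sh1, with a difference from the control of -0.02 ± 0.218 (SE; limma, adjusted p = 0.968), or in sh2, with -0.30 (adjusted p = 0.427).

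CHGB encodes chromogranin B, a related vesicle protein. The log2 signals of CHGB were 5.56, 5.88 and 5.42 in sh1, 5.55, 6.01 and 5.86 in sh2, and 5.38, 5.32 and 5.46 in the control. The sh2 arrays all lay above the control arrays, whereas the lowest sh1 array lay among them. The difference from the control was 0.23 ± 0.159 in sh1 (limma, adjusted p = 0.377); for sh2 it was 0.42 ± 0.159, with a 95% interval of 0.0711 to 0.769 (adjusted p = 0.103), so neither passed the test. VGF encodes a neurotrophin-inducible granin-like precursor of several neuropeptides. Its log2 signals were 4.99, 4.98 and 5.06 in sh1, 5.53, 5.03 and 5.15 in sh2, and 4.9, 4.69 and 4.83 in the control. All arrays of both lines lay above the control arrays, by little. The difference was 0.20 ± 0.146 in sh1 (limma, adjusted p = 0.405); for sh2 it was 0.43 ± 0.146, with an interval of 0.11 to 0.75 (adjusted p = 0.0696). CHGB in sh2 passed the test without sh2 array 1 (0.548, limma, adjusted p = 0.0462), and VGF in sh2 passed without sh2 array 2 (0.533, adjusted p = 0.0494).

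The promoters of CHGA and VGF are shown because both hold the full cAMP response element, TGACGTCA, the site bound by CREB, whose family and co-activators were measured below. They are from RefSeq on GRCh38.p14, 250 bases before to 50 after the transcription start that the RefSeq promoter table uses, 5′ to 3′ on the gene's strand, with that element in capitals. The table names no transcript, and for both genes this start lies inside the span annotated for the whole gene. That of CHGA lies at chr14:92922900-92923199 on the plus strand and that of VGF at chr7:101165520-101165819 on the minus strand.
CHGA: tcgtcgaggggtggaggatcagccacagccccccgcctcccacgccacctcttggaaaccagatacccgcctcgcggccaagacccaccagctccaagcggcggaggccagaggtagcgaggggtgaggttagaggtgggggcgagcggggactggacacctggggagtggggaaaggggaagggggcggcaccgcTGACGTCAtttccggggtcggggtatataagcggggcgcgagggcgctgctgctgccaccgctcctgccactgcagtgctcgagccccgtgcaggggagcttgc
VGF: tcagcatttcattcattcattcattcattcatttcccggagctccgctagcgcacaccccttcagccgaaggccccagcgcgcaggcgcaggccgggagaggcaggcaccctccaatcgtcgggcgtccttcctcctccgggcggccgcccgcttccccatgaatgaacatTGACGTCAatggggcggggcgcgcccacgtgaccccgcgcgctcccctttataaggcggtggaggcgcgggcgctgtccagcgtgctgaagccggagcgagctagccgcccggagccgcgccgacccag
The element, whose letters read the same on either strand, begins at base -54 from that start in CHGA and at base -79 in VGF, within the annotated gene span. It was present in 1.85% of 35116 promoters of the same length. Its half-site, TGACG on either strand, lies within the full element and also occurred alone in the promoters of SCG3 and SCG5. The half-site, alone or within the full element, was in 24.6% of all promoters. The AP-1 site, TGAGTCA on either strand, was in none of these 4 promoters and in 4.95% of all promoters. A match of letters is a description of the sequence. Promoters matched 4 of the 6 measured members, without SCG2 and CHGB.

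SCG3 encodes secretogranin III, which anchors chromogranin A to vesicle membranes. Its log2 signals were 3.98, 4.21 and 4.34 in sh1, 3.76, 4.02 and 3.83 in sh2, and 3.81, 3.78 and 3.4 in the control. The sh1 arrays lay above the control arrays, the sh2 arrays overlapped with them, and all group means lay under the lower quartile. SCG3 rose in sh1 by 0.51 ± 0.155 (SE; limma, adjusted p = 0.0381), a ratio of 1.43, and differed in sh2 by 0.21 (adjusted p = 0.442). The call in sh1 was lost without control array 2 (0.572, limma, adjusted p = 0.0566), control array 3 (0.382, adjusted p = 0.142), sh1 array 2 (0.497, adjusted p = 0.093), sh1 array 3 (0.432, adjusted p = 0.13) or sh2 array 3 (0.513, adjusted p = 0.0503). SCG5 encodes 7B2, the chaperone and inhibitor of the convertase PCSK2. Its log2 signals were 4.32, 4.58 and 4.48 in sh1, 4.37, 4.41 and 4.44 in sh2, and 4.09, 4.4 and 4.38 in the control. The groups overlapped, and SCG5 did not pass the test in sh1 (0.17 ± 0.132, limma, adjusted p = 0.446) or in sh2 (0.12, adjusted p = 0.638).

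SCG3 (chr15:51681503-51721026) and SCG5 (chr15:32641710-32697092) both lie on chromosome 15 of GRCh38.p14, where many genes were higher in sh1. The 324 expressed genes of that chromosome had a median difference from the control of 0.762 in sh1 and 0.252 in sh2, against 0.042 and 0.027 over all chromosomes. Expressed here means a row mean over 6.608, the median of all row means, a level that SCG3 and SCG5 did not reach. Of the 40 expressed genes around SCG3, from B2M to ZNF280D, 28 were called higher and 1 lower in sh1 in limma, with a median of 0.788, and 14 higher and 4 lower in sh2, with a median of 0.29. Of the 34 around SCG5, from HERC2P3 to BUB1B, 19 were called higher and 0 lower in sh1, with a median of 0.708, and 10 higher and 2 lower in sh2, with a median of 0.32. A neighbour correction subtracted from a gene's signal, on each array, the median deviation of its neighbours from their own means. The model was then fitted again. Later mentions of subtracting the neighbours' median mean this correction, not a subtraction of the median differences given. After the correction, SCG3 in sh1 stood at -0.214 (limma, adjusted p = 0.374) and SCG5 in sh1 at -0.564 (adjusted p = 0.00844). The subtraction applies to genes near the background as well. The part of the neighbours in these values was not tested.

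SCG2 (chr2:223596940-223602361) showed no such shift in the median of the genes around it. The 40 expressed genes on either side, from RNF25 to B3GNT7, had a median difference of -0.042 in sh1 and 0.047 in sh2, with 7 called higher and 5 lower in sh1 and 7 higher and 6 lower in sh2. After the neighbour correction, made on each array, SCG2 stood at 3.39 in sh1 and 3.29 in sh2. The nearest expressed gene on its left, FARSB, differed by -0.0033 in sh1 and 0.29 in sh2, and the nearest on its right, AP1S3, by -0.33 in sh1 and 1.97 in sh2. After AP1S3, the means of WDFY1, MRPL44, SERPINE2 and CUL3 lay above the control in both lines. SERPINE2 stood at 1.447 in sh1 and 1.503 in sh2. DOCK10, next to CUL3, lay below the control, at -1.13 in sh1 and -1.473 in sh2. The part of these neighbours was not tested. For CHGA (chr14:92922664-92935285) the neighbours' median was 0.035 in sh1 and 0.078 in sh2, and for CHGB (chr20:5911510-5925353) 0.062 in sh1 and 0.088 in sh2. Around VGF (chr7:101162509-101169952) the median lay below zero, at -0.212 in sh1 and -0.285 in sh2.

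**Figure D2:**
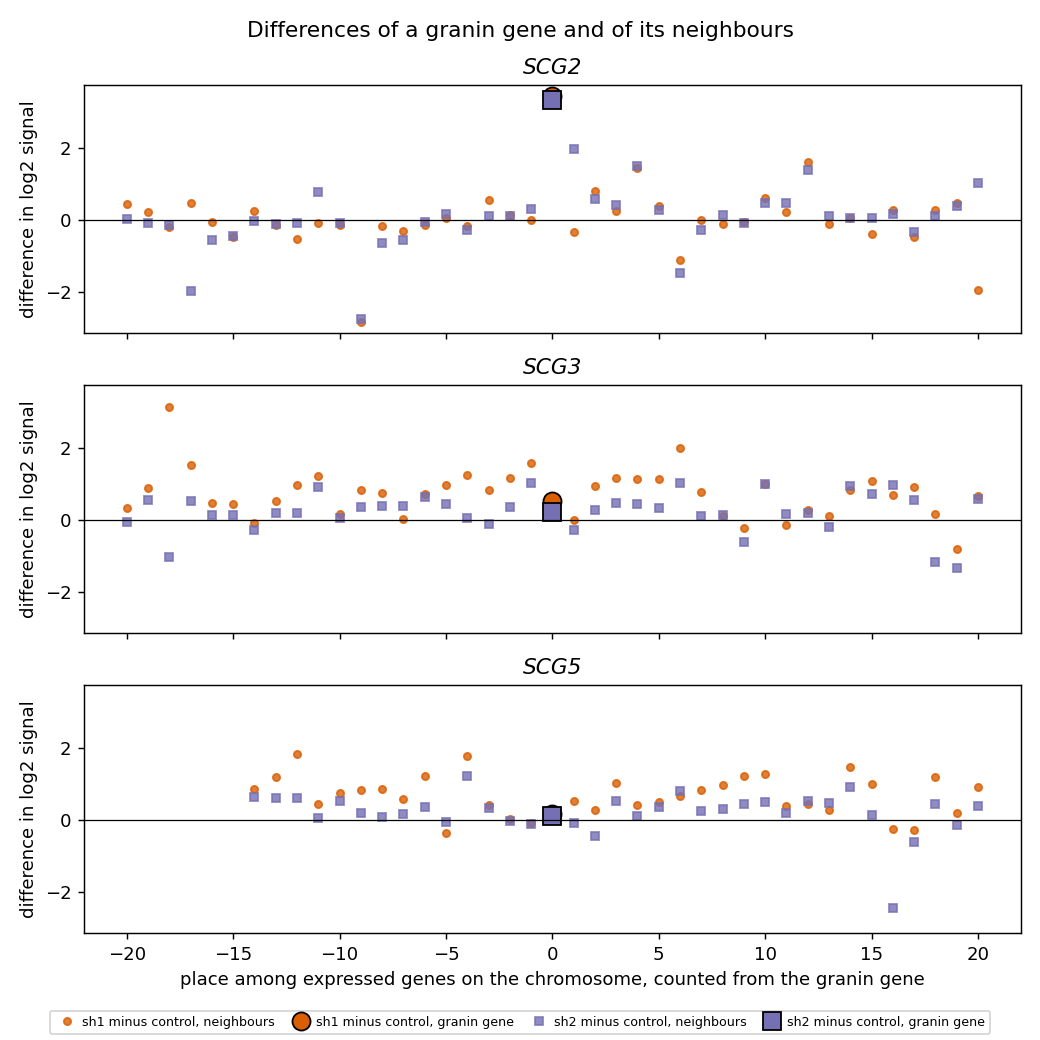
Difference from the control in log2 signal (vertical axis) of SCG2, SCG3 and SCG5 (large symbols) and of up to 20 expressed genes on either side (small symbols), by their place along the chromosome, in sh1 (circles) and sh2 (squares). SCG2 stood at 3.43 and 3.33 above neighbours with medians of -0.042 and 0.047, whereas SCG3 and SCG5 in sh1 lay below their neighbours' medians of 0.788 and 0.708.

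Convertases other than PCSK1 and PCSK2 were measured in 5 of 7 cases, and 1 was called higher and 1 lower in sh1, against 0 in sh2, where 0 had an unadjusted p under 0.05 in limma. Beside this, 9.76% of all rows were called higher and 9% lower in sh1, and 8.33% higher and 7.98% lower in sh2. FURIN, the convertase of the constitutive pathway, had log2 signals of 9.93, 10.49 and 10.08 in sh1, 10.05, 9.63 and 9.49 in sh2, and 9.37, 9.4 and 9.62 in the control. It rose in sh1 by 0.70 ± 0.184 (limma, adjusted p = 0.0194) without overlap with the control, and differed in sh2 by 0.26 (adjusted p = 0.413). FURIN also lies on chromosome 15, and its 40 neighbours had a median of 0.87 in sh1 and 0.493 in sh2. After the neighbour correction FURIN stood at -0.193 in sh1 (limma, adjusted p = 0.487). The FURIN call in sh1 was lost without control array 1 (0.657, limma, adjusted p = 0.0698), control array 2 (0.672, adjusted p = 0.0643) or sh1 array 2 (0.542, adjusted p = 0.0732). MBTPS1, the site-1 protease that activates sterol regulatory element binding proteins, had log2 signals of 10.86, 10.94 and 10.97 in sh1, 11.43, 11.69 and 11.54 in sh2, and 11.54, 11.43 and 11.58 in the control. Only the sh1 arrays stood apart, and MBTPS1 fell in sh1 by 0.59 (limma, adjusted p = 0.00498) and differed in sh2 by 0.04 (adjusted p = 0.894). Differences of PCSK4, a germ cell convertase, were 0.36 in sh1 and 0.39 in sh2, those of PCSK5 -0.08 in sh1 and 0.12 in sh2, and those of PCSK7 0.09 in sh1 and -0.03 in sh2, with limma adjusted p-values of 0.226 to 0.949. After subtraction of the neighbours' median PCSK4 was called higher in sh2 (0.644, limma, adjusted p = 0.0412). PCSK5 lay under the lower quartile in all groups.

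Among 3 genes grouped with the granins, PCSK1N, which encodes the PCSK1 inhibitor proSAAS, had mean log2 signals of 9.92 in sh1, 9.67 in sh2 and 9.86 in the control. Its differences of 0.06 in sh1 (limma, adjusted p = 0.832) and of -0.18 in sh2 (adjusted p = 0.445) did not pass the test. GNAS, whose locus encodes the stimulatory G protein alpha subunit and the granin-like NESP55, fell in sh1 by 0.51 (limma, adjusted p = 0.0394) and differed in sh2 by -0.35 (adjusted p = 0.173), and its 1 row is given for the locus as a whole. The call of GNAS in sh1 was lost without control array 1 or 2 or any 1 of the sh1 arrays (-0.413 to -0.575, limma, adjusted p = 0.0505 to 0.145). SCGN encodes secretagogin, a calcium sensor of endocrine cells that is not a granin, and lay under the lower quartile in all groups, with differences of 0.30 in sh1 (limma, adjusted p = 0.232) and of 0.31 in sh2 (adjusted p = 0.218).

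Several genes listed for peptide processing fell in the knockdown lines. The list is broad, with the cathepsins CTSB and CTSL beside carboxypeptidases, PAM and QPCT. Of 8 measured, 0 were called higher and 5 lower in sh1, with a median difference of -0.61, and 0 higher and 3 lower in sh2, with a median of -0.327, beside medians of 0.02 and 0.017 over all rows. The share of all rows called lower was 9% in sh1 and 7.98% in sh2. CPE, CTSB and PAM were called lower in both lines. CPE, the carboxypeptidase that trims basic residues from hormone precursors, had log2 signals of 5.67, 5.17 and 6.18 in sh1, 4.93, 4.27 and 4.66 in sh2, and 7.16, 6.78 and 6.88 in the control. The groups did not overlap, with sh2 lowest. CPE stood at 0.416 of the control level in sh1 (-1.27 ± 0.243 on the log2 scale, limma, adjusted p = 0.00334) and at 0.2 of it in sh2 (-2.32 ± 0.243, adjusted p = 5.78e-05). Its 40 neighbours had medians of 0.113 in sh1 and 0.085 in sh2.

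PAM, the monooxygenase that amidates peptide ends, had log2 signals of 10.08, 10.11 and 10.28 in sh1, 10.41, 10.36 and 10.45 in sh2, and 11.56, 11.7 and 11.49 in the control. All knockdown arrays lay below all control arrays. PAM fell by 1.43 ± 0.121 in sh1 (limma, adjusted p = 9.02e-06) and fell by 1.18 ± 0.121 in sh2 (adjusted p = 4.99e-05), while its neighbours on chromosome 5 had medians of -0.312 in sh1 and -0.38 in sh2. CTSB, the lysosomal protease cathepsin B, fell by 0.57 in sh1 (limma, adjusted p = 0.00586) and fell by 0.54 in sh2 (adjusted p = 0.00918). CPD, a carboxypeptidase of the trans-Golgi network, fell by 0.65 in sh1 (adjusted p = 0.0135) and differed by -0.22 in sh2 (adjusted p = 0.426). That call was lost without control array 3 (-0.512, limma, adjusted p = 0.0563) or sh1 array 2 (-0.587, adjusted p = 0.0512), and after subtraction of the neighbours' median (-0.435, adjusted p = 0.0585). QPCT, which forms the pyroglutamate end of some peptides, had log2 signals of 7.15, 7.59 and 7.63 in sh1, 8.82, 9.14 and 9.12 in sh2, and 8.42, 8.8 and 8.4 in the control. It was lowest in sh1 and, by little, highest in sh2, with no overlap. QPCT fell by 1.08 in sh1 (limma, adjusted p = 0.000977) and differed by 0.49 in sh2 (adjusted p = 0.0821). CTSL, CPM and CPZ, another cathepsin and carboxypeptidases, had differences of -0.44, 0.02 and -0.18 in sh1 and of -0.13, -0.43 and -0.14 in sh2, with adjusted p-values of 0.0723 to 0.969. Without sh2 array 3, CPM was called lower in sh2 (-0.662, limma, adjusted p = 0.0165), as it was after subtraction of the neighbours' median (-0.933, adjusted p = 0.00373). CTSL was called lower in sh1 with the trend and robust prior (adjusted p = 0.0448) and after that subtraction (-0.543, adjusted p = 0.0291).

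**Figure D3:**
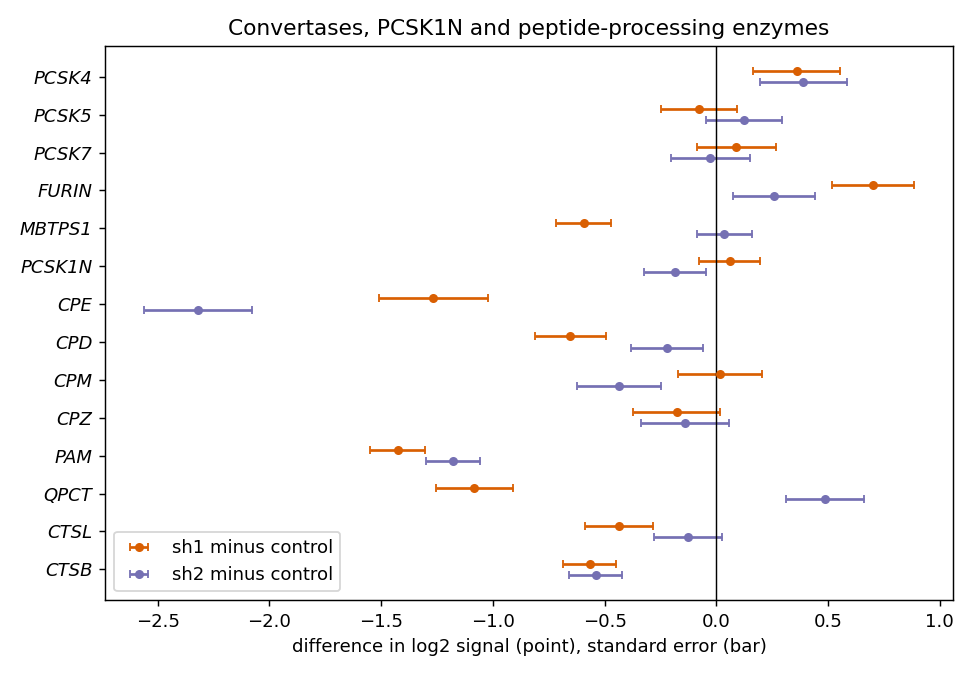
Difference from the control in log2 signal (point) with its standard error (bar) for the other convertases, PCSK1N and the peptide-processing enzymes in sh1 and sh2. CPE lay at -1.27 and -2.32 and PAM at -1.43 and -1.18, while PCSK1N lay near zero.

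Genes of dense-core vesicles and their exocytosis were called in both directions. Of 31 measured, 3 were called higher and 6 lower in sh1, and 7 higher and 4 lower in sh2, with median differences of -0.08 and 0.06. Between the lines 7 were higher and 1 lower in sh2 than in sh1, and 2 were called in opposite directions against the control. Of all rows, 9.76% were called higher and 9% lower in sh1, 8.33% higher and 7.98% lower in sh2, and 5.73% higher and 5.57% lower in sh2 than in sh1. SYT1, a calcium sensor of regulated exocytosis, had log2 signals of 8.1, 8.0 and 8.2 in sh1, 12.12, 12.43 and 12.3 in sh2, and 8.29, 8.37 and 8.86 in the control. Only the sh2 arrays were high. SYT1 rose in sh2 by 3.78 ± 0.164 (limma, adjusted p = 4.18e-08), a ratio of 13.7, and differed in sh1 by -0.41 (adjusted p = 0.117). After subtraction of the neighbours' median SYT1 was called lower in sh1 (-0.708, limma, adjusted p = 0.00876). SYT9, a related sensor, had log2 signals of 6.28, 6.76 and 6.38 in sh1, 10.07, 10.49 and 10.23 in sh2, and 8.55, 8.34 and 8.27 in the control. The groups did not overlap, and SYT9 fell by 1.91 in sh1 (limma, adjusted p = 9.9e-06) and rose by 1.88 in sh2 (adjusted p = 1.36e-05).

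UNC13A, which primes vesicles for release, was the vesicle gene called higher in both lines. Its log2 signals were 5.66, 5.55 and 5.66 in sh1, 6.74, 6.96 and 6.4 in sh2, and 4.42, 4.08 and 4.21 in the control, with no overlap. The control mean of 4.24 lay close to the lower quartile, so the size of the rises may be limited there. UNC13A rose by 1.39 ± 0.158 in sh1 (limma, adjusted p = 8.4e-05) and by 2.46 ± 0.158 in sh2 (adjusted p = 1e-06). CYB561, the cytochrome of vesicle membranes that supplies electrons to PAM and DBH through ascorbate, fell by 1.81 in sh1 (limma, adjusted p = 0.000157) and fell by 1.73 in sh2 (adjusted p = 0.000264). The following were chosen after their values were seen. SV2A, UNC13B and SYT11 were, with CYB561, the 4 called lower in both lines, at -1.40, -1.19 and -1.21 in sh1 and -1.84, -1.17 and -0.57 in sh2. RAB3B and ICA1 were the others called higher in sh1, at 0.63 and 1.58, and SYTL5 was the other gene that moved in opposite directions, at -0.96 in sh1 and 0.79 in sh2. RAB27B, SNAP25 and VAMP2 were called higher in sh2, at 2.08, 0.96 and 0.55. PTPRN and PTPRN2, vesicle membrane phosphatases, differed by 0.01 and -0.04 in sh1 and by 0.17 and -0.17 in sh2, and neither was called.

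**Figure D4:**
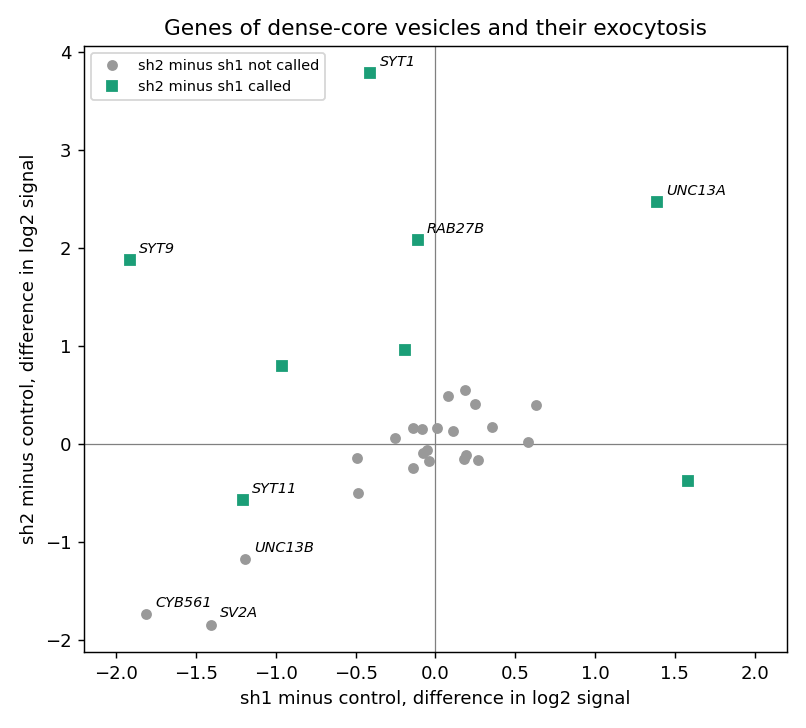
Difference from the control in log2 signal in sh1 (horizontal axis) and sh2 (vertical axis) of 31 measured genes of dense-core vesicles and their exocytosis, with squares for the 8 called between sh2 and sh1. SYT1 and RAB27B lay high in sh2 alone, SYT9 in the upper left, UNC13A high in both lines and CYB561 low in both; both axes share the control arrays.

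Cargo peptides were called at a share near or below that of all rows. Of 32 measured peptide hormones and neuropeptides, 2 were called higher and 2 lower in sh1, and 1 higher and 1 lower in sh2, with medians of 0.008 and 0.012. That is 6.25% in each direction in sh1, beside 9.76% and 9% of all rows, and 3.12% in each direction in sh2, beside 8.33% and 7.98%. BDNF, a neurotrophin sorted into the regulated pathway, had log2 signals of 5.87, 6.0 and 5.85 in sh1, 8.16, 7.82 and 7.7 in sh2, and 3.27, 4.08 and 4.12 in the control, which lay under the lower quartile. The groups did not overlap. BDNF rose by 2.08 in sh1 (limma, adjusted p = 3.94e-05) and by 4.07 in sh2 (adjusted p = 1.93e-07). EDN1, the precursor of the vasoconstrictor endothelin 1, fell by 0.86 in sh1 (limma, adjusted p = 0.00182) and fell by 2.37 in sh2 (adjusted p = 9.6e-07). ADM, which encodes adrenomedullin, an amidated vasodilator, rose by 1.56 in sh1 (adjusted p = 6.07e-05) and differed by -0.16 in sh2 (adjusted p = 0.613). ADCYAP1, the precursor of the neuropeptide PACAP, fell by 0.59 in sh1 (adjusted p = 0.0143) and differed by -0.30 in sh2 (adjusted p = 0.213), under the lower quartile in all groups. That call was lost without control array 1 or 3 or sh1 array 3 (-0.52 to -0.56, limma, adjusted p = 0.0533 to 0.0589), and ADCYAP1 was called lower in sh2 after subtraction of the neighbours' median (-0.588, adjusted p = 0.00826).

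Factors known to set neuroendocrine gene expression were examined next. Of 14 measured transcription factors of neuroendocrine cells, 8 lay under the lower quartile in each group, 1 was called higher in sh1 and 0 in sh2, where 0 had an unadjusted p under 0.05 in limma. The 1 gene is 7.14% of the list, beside 9.76% of all rows called higher in sh1. PAX6, an islet and neural factor, rose by 0.92 in sh1 (limma, adjusted p = 0.00431) under the lower quartile and differed by 0.18 in sh2 (adjusted p = 0.597). REST represses neuronal genes, SCG2 among its known targets, and had mean log2 signals of 10.8 in sh1, 10.3 in sh2 and 10.4 in the control. Its differences of 0.41 in sh1 (limma, adjusted p = 0.0764) and of -0.03 in sh2 (adjusted p = 0.938) did not pass the test. Of the 8 measured genes of REST and its co-repressors, 3 were called higher and 1 lower in sh1, and 2 higher and 2 lower in sh2, with medians of 0.375 and 0.017, where 9.76% of all rows were called higher and 9% lower in sh1, and 8.33% and 7.98% in sh2.

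SIN3A, a co-repressor scaffold, rose by 1.37 in sh1 (limma, adjusted p = 3.13e-05) and by 0.64 in sh2 (adjusted p = 0.00789), on chromosome 15 among neighbours with medians of 0.645 and 0.113. RCOR1, the CoREST scaffold, rose by 0.76 in sh1 (limma, adjusted p = 0.00109) and by 0.52 in sh2 (adjusted p = 0.0132). RCOR2, its paralog, rose by 0.76 in sh1 (adjusted p = 0.00954) from a control under the lower quartile and differed by 0.06 in sh2 (adjusted p = 0.877). EHMT2, a histone methyltransferase, fell by 0.79 in sh1 (limma, adjusted p = 0.0273) and fell by 0.95 in sh2 (adjusted p = 0.0128), among neighbours on chromosome 6 with medians of -0.552 and -0.55. After the neighbour correction EHMT2 stood at -0.257 in sh1 (limma, adjusted p = 0.426) and at -0.377 in sh2 (adjusted p = 0.245). Without control array 1 the call of RCOR1 in sh2 was lost (0.482, limma, adjusted p = 0.0579). That of EHMT2 was lost in sh1 without control array 1 or 3 or sh1 array 1 or 2 (-0.617 to -0.797, adjusted p = 0.0684 to 0.104), and in sh2 without control array 1 (-0.85, adjusted p = 0.0559) or sh2 array 3 (-0.752, adjusted p = 0.0513). RCOR3, named after its value was seen, was the other gene called lower in sh2, at -0.55.

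Of 20 measured genes of the CREB and AP-1 families and their early targets, 3 were called higher and 1 lower in sh1, and 3 higher and 2 lower in sh2, with medians of 0.098 and 0.047. These are 15% higher and 5% lower in sh1, beside 9.76% and 9% of all rows, and 15% and 10% in sh2, beside 8.33% and 7.98%. CRTC3, a CREB co-activator on chromosome 15, rose by 1.44 in sh1 (limma, adjusted p = 4.39e-05) and by 0.82 in sh2 (adjusted p = 0.00304), among neighbours with medians of 0.847 and 0.487. After the neighbour correction the call of CRTC3 in sh2 was lost (0.361, limma, adjusted p = 0.114). FOSL1, an AP-1 subunit, rose by 0.81 in sh1 (limma, adjusted p = 0.00419) and by 1.08 in sh2 (adjusted p = 0.000782). JUN, another subunit, had log2 signals of 7.54, 9.15 and 7.64 in sh1, 7.94, 7.12 and 7.36 in sh2, and 9.51, 9.24 and 9.51 in the control. The second sh1 array lay close to the control. That array also stood apart for ATF3, named after its values were seen, at 10.58 against 7.61 on each other sh1 array. ATF3 was not called in sh1 (1.67, limma, adjusted p = 0.0836). EGR1, JUNB, FOSB, NR4A1 and, under the lower quartile, NR4A2 were among the genes also highest in sh1 on that array. FOS, JUND and NR4A3 were not. JUN fell by 1.31 in sh1 (limma, adjusted p = 0.0257) and fell by 1.95 in sh2 (adjusted p = 0.00326). The call of JUN in sh1 was lost without any 1 of the control arrays or without sh1 array 1 or 3 (-1.02 to -1.4, limma, adjusted p = 0.0511 to 0.0995). Over all arrays left out singly, the JUN difference in sh1 ranged from -1.83 to -1.02. CREB3L1, a membrane-bound factor of the secretory pathway, rose by 1.08 in sh2 (adjusted p = 0.00284) and differed by 0.24 in sh1 (adjusted p = 0.464). CREB1 in sh1 (0.45) and JUND in sh2 (-0.75), named after their values were seen, were the other called genes.

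Of 13 measured markers of neuroendocrine cells outside the granins, 1 was called higher and 2 lower in sh1, and 2 higher and 1 lower in sh2. These are 7.69% and 15.4% in sh1, beside 9.76% and 9% of all rows, and 15.4% and 7.69% in sh2, beside 8.33% and 7.98%. Their summed log2 signal per array ranged from 67 to 69.25 in sh1, 73.16 to 75.12 in sh2 and 68.25 to 70.3 in the control. The higher sum in sh2 rested largely on NCAM1. The median difference of the 13 markers from the control was -0.077 in sh1 and -0.01 in sh2. NCAM1, a neural cell adhesion molecule, had log2 signals of 4.3, 4.17 and 3.75 in sh1, 10.79, 10.94 and 11.13 in sh2, and 5.53, 5.58 and 5.47 in the control. The sh2 arrays were far above and the sh1 arrays below the control. The sh1 mean lay under the lower quartile, so the size of a difference from it may be limited by the background. NCAM1 fell by 1.45 in sh1 (limma, adjusted p = 6.01e-05) and rose by 5.43 in sh2 (adjusted p = 2.1e-09). UCHL1, a neuronal ubiquitin hydrolase, rose by 1.33 in sh1 (limma, adjusted p = 0.00055) and by 1.17 in sh2 (adjusted p = 0.00155), against a control under the lower quartile, which may limit these sizes too. L1CAM, an adhesion molecule, fell by 1.42 in sh2 (adjusted p = 0.000221) and differed by -0.23 in sh1 (adjusted p = 0.449), and DBH, which makes noradrenaline, fell by 0.53 in sh1 (adjusted p = 0.0372) under the lower quartile, a call lost without control array 1 or 2 or sh1 array 2 (-0.378 to -0.497, adjusted p = 0.109 to 0.136). SYP, the vesicle protein synaptophysin, differed by 0.24 in sh1 (adjusted p = 0.329) and by 0.46 in sh2 (adjusted p = 0.0596). Of the 13 markers, 5 lay under the lower quartile in sh1, 4 in sh2 and 4 in the control. Their part in the SCG2 difference was not tested.

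Markers of islet, acinar and endothelial cells were called in 0 of 8, 0 of 9 and 0 of 5 cases in limma in either line, with 0, 1 and 0 at an unadjusted p under 0.05 in sh1 and 0, 2 and 0 in sh2. Of 8 fibroblast markers, COL1A1 and COL1A2, fibrillar collagen chains, were called lower, at -3.19 and -1.18 in sh1 and -3.48 and -1.16 in sh2, and 0 were called higher. Of 5 leukocyte markers, PTPRC was called lower in both lines (-0.70 in sh1, -0.65 in sh2) and CD68 lower in sh1 (-0.48). The epithelial markers were called higher for 5 and lower for 2 of 11 in sh1, and higher for 4 and lower for 2 in sh2, where 9.76% and 9% of all rows were called in sh1 and 8.33% and 7.98% in sh2. Among them EPCAM, an epithelial adhesion molecule, rose by 4.94 in sh1 and by 0.74 in sh2, and CDH1, E-cadherin, rose by 2.03 in sh1 and fell by 0.52 in sh2. ELF3, an epithelial transcription factor, rose by 2.25 in sh1 and by 1.19 in sh2, and KRT18 rose by 1.21 in sh1 and by 1.27 in sh2. Named after their values were seen, KRT8 was called higher in both lines, KRT19 lower in both lines and GATA6 lower in sh1.

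The genes whose signal most resembled that of SCG2 over the 9 arrays were SPARC (Pearson r = 0.993), MERTK (0.992), SCIN (0.988), COL5A2 (0.982) and ELFN1 (0.981), among 703 genes with a range of at least 2 on the log2 scale. SPARC, a matricellular protein, had means of 11.2 in sh1, 11.1 in sh2 and 4 in the control, and SCIN, an actin-severing protein, of 8.65, 9.16 and 3.5 in the same groups. All 5 were high in both lines, and the arrays share their groups, so r follows the difference between the groups. For SCG3 the highest were PGPEP1 (0.902), RBM11 (0.897), ALDH1A1 (0.877), GIPC2 (0.851) and GABARAPL1 (0.848), among 704 genes, each higher in sh1 than in sh2 and lowest in the control.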

How the data were processed

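Total RNA (100 ng for each of 9 arrays, 3 per group) was labelled with biotin for 1-colour whole-transcript arrays, per the labels' protocols. Whether a group's 3 arrays stem from separate cultures is not stated. The authors deposited 1 table of values, summarised with Transcriptome Analysis Console per the submitters' processing notes; the sources used here give neither its version nor the normalization and probe filters. The deposited values are taken as log2 signals because of their range (2.03 to 18.57), and were used without further scaling. Gene names came from GEO's platform annotation, which gave 17709 rows 1 symbol and 3739 rows none or several. Coordinates and gene order came from RefSeq on GRCh38.p14.

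Groups followed the labels. Differences (sh1 minus control, sh2 minus control, sh2 minus sh1) were tested with 1 model over the 9 arrays in limma 3.58.1 (R 4.3.3), and p-values were adjusted by Benjamini-Hochberg over all 21448 rows; called rows have an adjusted p under 0.05. Tables were made with pandas 2.3.3 in Python 3.11.15. The model was tested on simulated data. Array numbers were not taken as pairing the groups. Deviations of same-numbered arrays correlated at -0.0358 to 0.18, with 2 of 9 pairs over 0.1. The pairs of array number 1 were the highest, at 0.0856 to 0.18. Neighbours were the 20 expressed genes on either side (fewer at a chromosome end), where expressed means a row mean over 6.608, the median of all row means. The named genes were the members, STOML2, all convertases, granin relatives and processing enzymes, at most 4 called members of each other list with the largest mean size of their differences from the control over both lines, and the 5 genes most like SCG2 or SCG3. The 16 lists, the members being 1 of them (208 genes, 183 measured), were chosen with earlier results of these data known. Alternatives were a filter on low rows, another scaling and prior, fewer groups, a replicate block, a stricter threshold, leaving out each array and, added after seeing the data, the neighbour correction.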

Additional observations from a re-analysis of the deposited data

Results flagged for a closer look

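The knockdown lines differed from each other in 20 of the genes named by rule from the gene lists. The test was limma on sh2 minus sh1 on the log2 scale (adjusted p under 0.05 over all rows). Of all rows, it called 5.73% higher and 5.57% lower in sh2. Many of the 20 were named for large called differences from the control on the same arrays, so their number does not describe the lists. Genes named for their likeness to SCG2 or SCG3, or after their values were seen, are not counted. The 2 differences from the control of such a gene share the control arrays, and groups of 3 arrays were not tested for arrays that stand apart.

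Among processing enzymes, CPE differed by -1.05, lower in sh2 (limma, adjusted p = 0.0155), QPCT was higher by 1.57 (adjusted p = 0.0001) and the protease MBTPS1 by 0.63 (adjusted p = 0.00553). The CPE difference did not pass without sh1 array 3 (-0.8, adjusted p = 0.0548) or sh2 array 2 (-0.878, adjusted p = 0.0665). Among vesicle genes, SYT1 was higher in sh2 by 4.18 (adjusted p = 4.21e-08), SYT9 by 3.79 (adjusted p = 8.87e-08) and UNC13A by 1.08 (adjusted p = 0.000906). Among peptides, BDNF was higher in sh2 by 1.99 (adjusted p = 8.73e-05), and EDN1 and ADM differed by -1.50 (adjusted p = 4.84e-05) and -1.72 (adjusted p = 4.37e-05).

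Among regulators, PAX6 differed by -0.74 (limma, adjusted p = 0.023), SIN3A by -0.73 (adjusted p = 0.00465), RCOR2 by -0.70 (adjusted p = 0.0231), CRTC3 by -0.62 (adjusted p = 0.0211) and CREB3L1 by 0.83 (adjusted p = 0.0169). Leaving out single arrays ended the call of PAX6, RCOR2 and CRTC3 for 4 arrays each (sh1 array 1 and sh2 arrays 2 and 3, with sh1 array 2 for PAX6 and RCOR2 and sh1 array 3 for CRTC3) and of CREB3L1 for 3 (sh1 array 3, sh2 arrays 1 and 3). PAX6 then stood at -0.56 to -0.773, RCOR2 at -0.627 to -0.697, CRTC3 at -0.545 to -0.582 and CREB3L1 at 0.667 to 0.762. After subtraction of the neighbours' shift SIN3A stood at -0.231 (adjusted p = 0.309) and CRTC3 at -0.221 (adjusted p = 0.391).

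Among cell type markers, NCAM1 was higher in sh2 than in sh1 by 6.88 (limma, adjusted p = 6.57e-10), with sh1 under the lower quartile, and CD68 by 0.89 (adjusted p = 0.00154). EPCAM differed by -4.20 (adjusted p = 1.92e-08), CDH1 by -2.55 (adjusted p = 1.1e-06), L1CAM by -1.19 (adjusted p = 0.00106) and ELF3 by -1.06 (adjusted p = 0.0266). SCG2 was not among these genes, but its values had entered the selection.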

How the results depend on the processing

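SCG2 stayed between 3.29 and 3.55 in sh1 and between 3.16 and 3.50 in sh2 over 17 alternatives each. The count of other members called in sh1 (1, SCG3) was 0 without rows under the lower quartile (which removes SCG3 and CHGA), with the trend and robust prior, with only the 2 groups compared, with the replicate block and at an adjusted p under 0.01, and 0 to 1 when 1 array was left out. It was 2 after the neighbour correction, where VGF (0.445, adjusted p = 0.0494) and SCG5 (-0.564, adjusted p = 0.00844, reversed) were called and SCG3 reversed to -0.214 (adjusted p = 0.374). By construction that correction subtracts the neighbours' shift also from genes near the background. The difference of SCG3 in sh1 (0.513) had limma adjusted p = 0.0514 with the trend and robust prior and 0.0556 with 2 groups, and was 0.382 to 0.612 when 1 array was left out.

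The count of members called in sh2 (0) was 1 without rows under the lower quartile (VGF, 0.43, limma, adjusted p = 0.0495), 1 after the neighbour correction (VGF, 0.745, adjusted p = 0.00395) and 0 to 1 when 1 array was left out, with VGF at 0.283 to 0.533 and CHGB at 0.318 to 0.548. Between the lines it was 1 (SCG5, 0.429, adjusted p = 0.0481) after the neighbour correction, which reversed its sign, and it reversed FURIN in sh1 to -0.193. Rows called at an adjusted p under 0.01 numbered 2425 in sh1, 1921 in sh2 and 1331 between the lines, against 4025, 3498 and 2423 at 0.05. In 9 of the lists, the REST list and the CREB and AP-1 list among them, 134 genes were measured. Of these, 33 were called in sh1, 28 in sh2 and 23 between the lines. Of all rows, 9.76% were called higher and 9% lower in sh1, and 8.33% and 7.98% in sh2. Between the lines the shares were 5.73% and 5.57%. The counts among the 134 genes stayed within 1.5 times under all 18 alternatives.

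The array numbers were not taken as pairing the groups. With the replicate block, 0 members were called in sh1, SCG3 stood at 0.513 (limma, adjusted p = 0.0527), and QPCT was called in sh2 (0.487, adjusted p = 0.0425). The cause of these changes was not tested. Signals near the background limit CHGA, SCG3 and the control level of SCG2.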
